A study of Caenorhabditis elegans with 2 samples.

Results

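The ribosome is built in the nucleolus, where ribosomal RNA is transcribed, modified by small nucleolar ribonucleoproteins, cut by nucleases and packed with ribosomal proteins by assembly factors. In C. elegans the size of the nucleolus is under genetic control, and several assembly factors were first found through germline defects. The 10 genes described here act in or on this process. They were picked by name, as genes of ribosome biogenesis and the nucleolus: fib-1, nol-58, nol-56, pro-1, pro-2, pro-3, lpd-7, xrn-2, ncl-1 and larp-1. They are 10 of 19973 protein-coding genes on the nuclear chromosomes. The protein mapped in the experiment, encoded by Y56A3A.18 (znf-593), belongs to a family whose yeast relative, Bud20, travels with precursors of the large ribosomal subunit out of the nucleus.

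The data are chromatin immunoprecipitation with sequencing (ChIP-seq) from whole young adult worms of the strain RW12265, aged 63 hours and synchronised as starved L1 larvae after bleaching. Every animal carried st12265, a TY1, EGFP and 3xFLAG tag inserted by CRISPR at Y56A3A.18 on chromosome III, so the tagged protein was made from its own locus, and an antibody to GFP pulled it down. The 2 biological replicates form 1 group, with no other genotype or treatment to compare, and untagged or input controls were not analysed here. Whole animals mix all tissues, so a peak does not say in which cells the protein was present.

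A gene was called bound when a peak summit lay from 1000 bp upstream to 500 bp downstream of the 5′ end of its gene model. By this rule 4 of the 10 genes were bound in the authors' conservative list, which holds 1687 peaks that passed the irreproducible discovery rate (IDR) threshold between replicates. In order of signal they were larp-1, then pro-1 and xrn-2, and last nol-58, while fib-1, nol-56, pro-2, pro-3, ncl-1 and lpd-7 were not bound. Among all protein-coding genes 3.89% were bound (777 of 19973). The 10 names were proposed with results of these data in view, so their share is a description and was not tested. The median of the strongest pooled signal was 111 over the 4 bound genes and 75.7 over all 777. Signal is the authors' own strength of enrichment for each peak, on a scale not given in the sources used here, and it ranked peaks from 2.45 to 397 in the conservative list.

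Each replicate alone gave 3 of the 10 genes in its own thresholded list. These were larp-1, xrn-2 and pro-1 in replicate 1, where 2.00% of all coding genes were bound, and larp-1, xrn-2 and nol-58 in replicate 2, where 1.85% were. Only larp-1 and xrn-2 were therefore bound in both replicates taken alone. The ranked lists, which also hold weak peaks, had a summit in the window of 8 of the 10 genes in replicate 1 and of all 10 in replicate 2. Such a summit says little, as 52.8% of all coding genes had one in replicate 1 and 54.7% in replicate 2.

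**Figure D1:**
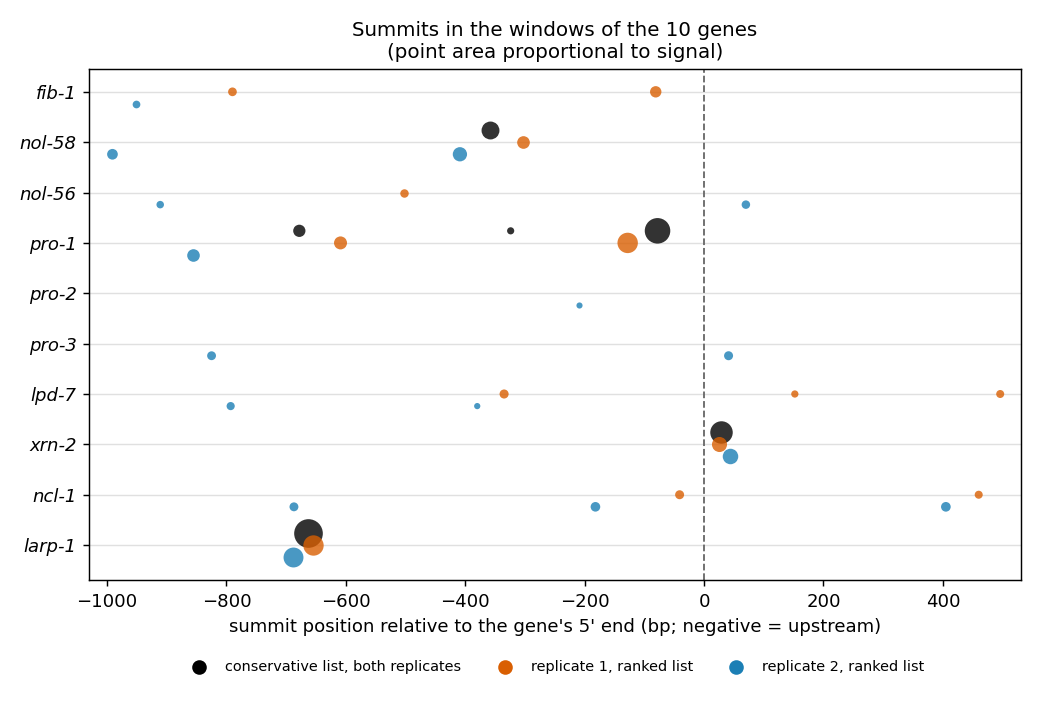
Position of every summit in the windows of the 10 genes, in bp from the gene's 5′ end, in the conservative list (black) and in the ranked list of replicate 1 (orange) and replicate 2 (blue), with point area proportional to signal. At xrn-2 and larp-1 the 3 lists place a strong summit within 34 bp of each other, whereas at pro-1 the strong summit near the start is seen in the conservative list and in replicate 1 only.

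The core proteins of the box C/D small nucleolar ribonucleoproteins, which guide methylation of ribosomal RNA, are fibrillarin (fib-1, the methyltransferase), nol-56 and nol-58. Of these 3 genes, nol-58 (chromosome I, 3267094 to 3269112, plus strand) was bound and the others were not. Its peak spanned chrI:3266585-3266884, with a pooled signal of 61.5, rank 1182 of the 1687 peaks, and an IDR of 0.00297. The signal was 30.8 in replicate 1 and 39.1 in replicate 2 (34.9 ± 5.85, SD, n = 2). Both replicates had a summit there, 304 and 409 bp upstream of the start, but only that of replicate 2 passed the threshold in its own list (IDR 0.00985 against 0.0873). The pooled summit lay 359 bp upstream of nol-58, inside the 5′ untranslated region of zip-4, a bZIP transcription factor gene on the opposite strand whose own start was 27 bp away. A second conservative peak, with a pooled signal of 77.9 (36.4 ± 0.329, SD, n = 2), had its summit 172 bp past the 3′ end of nol-58, between genes and outside the window. The 2 peaks on either side of nol-58 thus had similar signals, and only the weaker was counted for the gene.

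At fib-1 (chromosome V, 15000651 to 15002223, minus strand) no summit in the window passed the threshold. The strongest in replicate 1 lay 81 bp upstream with a signal of 24.9, above 80.4% of the coding genes with a ranked summit, and an IDR of 0.251. In replicate 2 the strongest was 11.4, at 952 bp upstream, above 25.7% of such genes. The replicates thus placed fib-1 at different heights and positions. The ranked list of both replicates had a summit of 46.5 at 153 bp upstream with an IDR of 0.170, the lowest IDR among the 14 summits it holds in the windows of unbound members. The nearest conservative peak was on the other side of the gene. Its summit lay 215 bp past the 3′ end of fib-1, in a coding exon of rps-16, a small-subunit ribosomal protein gene that follows fib-1 on the same strand after 109 bp. That peak was found in both replicates alone, at 41.7 in replicate 1 and 35.6 in replicate 2, and reached 81.8 in the conservative list.

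The third core gene, nol-56 (chromosome V, 10350466 to 10352978, minus strand), had weak and scattered summits. The strongest was 13.8 in either replicate, but 503 bp upstream of the start in replicate 1 and 70 bp downstream in replicate 2. These values were above 25.7% and 43.1% of the coding genes with a ranked summit, below the middle of the range in both replicates. The nearest conservative summit was 10936 bp from the start.

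The pro genes and lpd-7 encode assembly factors of ribosomal precursors. The former were named for germline proliferation: pro-1 encodes a WD-repeat protein needed for processing of ribosomal RNA, pro-2 a relative of the yeast assembly factor Noc2, and pro-3 a relative of Sda1. The gene lpd-7 encodes the worm pescadillo, a factor of large-subunit assembly. Only pro-1 was bound.

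The gene pro-1 (chromosome II, 10539438 to 10541996, minus strand) had 3 conservative summits in its window, at 78, 324 and 678 bp upstream, with pooled signals of 125, 9.85 and 28.8. The strongest peak spanned chrII:10541924-10542223 and ranked 153 in the list. Replicate 1 alone had a narrow peak of 79 bp there, with a signal of 79.8, higher than at 99.5% of coding genes with a ranked summit, and an IDR of 3.2e-05. In the ranked list of replicate 2 the only summit in the window lay 856 bp upstream, with a signal of 30.5 and an IDR of 0.0144. For the conservative peak the authors' files pair the peak of 79.8 with one of 22.7 (51.3 ± 40.4, SD, n = 2), and the paired peaks do not overlap, with 11 bp between them. The peak of 22.7 is not in the ranked list of replicate 2. Only 26 of the 1687 conservative peaks (1.54%) have paired peaks that lie apart. The same peak of 79.8 is also paired with the conservative peak of 9.85, whose pooled signal is below both of its paired values. The summit at 678 bp has paired values close to each other, 32.4 and 30.5 (31.4 ± 1.34, SD, n = 2), and an IDR of 0.00399, and its paired peaks share 3 bp. Neither of these paired peaks passed the threshold in its own replicate, with an IDR of 0.112 in replicate 1 and 0.0144 in replicate 2. The strongest of the 3 summits was thus high in replicate 1 only, while the weaker one at 678 bp was of similar height in both.

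The DNA around that summit is shown to let its base composition be seen. It runs from 100 bp upstream of the pooled summit to the base before the gene start (chrII:10541997-10542174, WBcel235, minus strand, RefSeq). Capitals mark the one TATAAA, and the summit is base 101.
pro-1 summit: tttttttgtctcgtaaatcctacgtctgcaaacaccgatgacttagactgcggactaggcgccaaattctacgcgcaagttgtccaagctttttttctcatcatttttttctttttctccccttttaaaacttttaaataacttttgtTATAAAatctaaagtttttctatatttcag

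This stretch is poor in G and C, at 33.1%. The 50 bp on either side of the summit held 33.7%, against a median of 45.5% over all conservative summits (quartiles 38.6 and 52.5%) and 35.4% in the nuclear genome. The run ends in the letters TTTCAG directly before the annotated start. Many worm messages receive a spliced leader, and their gene models then begin at the splice site, not where transcription starts. Whether that holds for pro-1 was not tested. The next gene upstream, mnk-1, a protein kinase gene on the same strand, ends 424 bp before pro-1, and the summit at 678 bp lies in its 3′ untranslated region.

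At the other assembly factors the windows held weak summits only. For pro-2 (chromosome II, 10339727 to 10345112) replicate 1 had none, and the strongest of replicate 2 was 7.21, above 5.30% of coding genes with a ranked summit, or above 52.4% with a window from 2000 bp upstream. For pro-3 (chromosome V, 19101347 to 19118412) replicate 1 again had none, and replicate 2 had a summit of 15.6 at 41 bp downstream of the start, above 54.7% of such genes. Neither has a conservative summit close by, the nearest being 37330 bp from pro-2 and 7603 bp from pro-3. As no peak was ranked in their windows in replicate 1, pro-2 and pro-3 have no value there. Among the strongest signals of the 10 genes, the lowest was the 7.21 of pro-2 in replicate 2.

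The window of lpd-7 (chromosome III, 7573350 to 7575263, plus strand) was as quiet, with a strongest summit of 15.8 in replicate 1 and 12.8 in replicate 2, above 38.8% and 35.7% of coding genes with a ranked summit. A strong peak lay just beyond it. Its summit was 1460 bp upstream of lpd-7, with a pooled signal of 94.3, and it passed the threshold in both replicates alone at 47.6 and 42.7 (45.2 ± 3.45, SD, n = 2). Between that summit and lpd-7 lies rpl-9, a large-subunit ribosomal protein gene on the opposite strand, and the summit was 215 bp past the 3′ end of rpl-9 and 941 bp from its start. With a window from 2000 bp upstream, lpd-7 would count as bound and would stand above 96.9% and 97.1% of coding genes with a ranked summit.

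**Figure D2:**
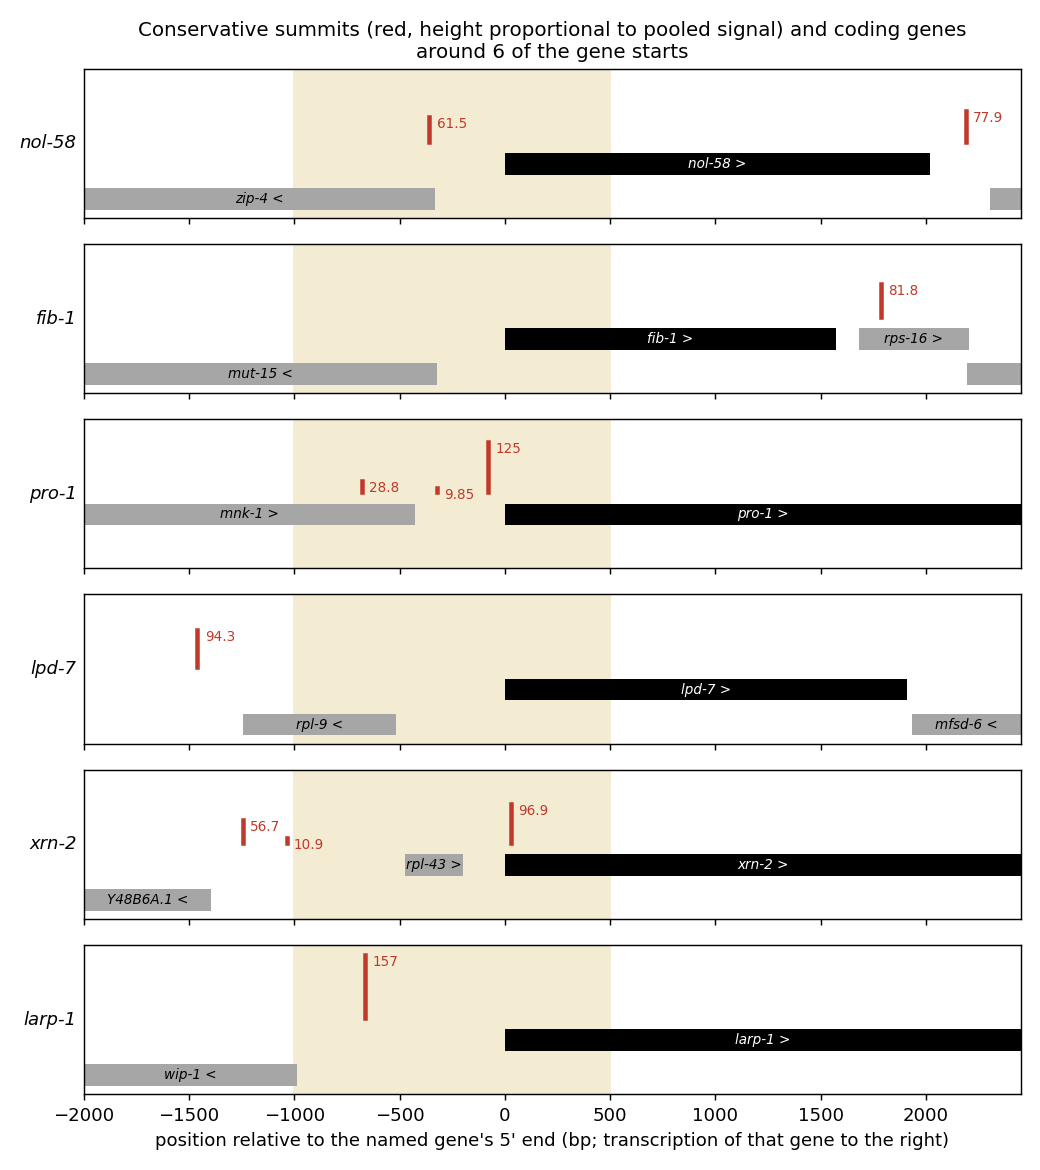
Summits of the conservative list (red lines, height proportional to pooled signal, value beside each) and protein-coding genes (black, the gene named at the left; grey, its neighbours, with > for the same strand and < for the opposite strand) around the 5′ ends of 6 genes, in bp. The shaded band is the window from 1000 bp upstream to 500 bp downstream, and the peaks of fib-1 (81.8) and lpd-7 (94.3) fall outside it.

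The gene xrn-2 encodes a nuclear exoribonuclease that trims precursors of ribosomal and other RNAs and degrades their leftovers. It lies on chromosome II at 14155768 to 14166030, plus strand, and carried the peak closest to its start among the 10 genes. The peak spanned chrII:14155647-14155946 with its summit 29 bp downstream of the start, in the first coding exon, a pooled signal of 96.9, rank 367 and an IDR of 5.7e-04. The replicates gave 43.5 and 46.0 (44.8 ± 1.81, SD, n = 2), with summits 25 and 43 bp downstream. Both passed in their own lists, and both stood high, above 96.5% and 98.1% of coding genes with a ranked summit. The ribosomal protein gene rpl-43 lies 198 bp upstream on the same strand. The xrn-2 summit was 503 bp from the start of rpl-43, 3 bp beyond the window, so it was counted for xrn-2 alone. The gene rpl-43 was bound through other summits, the stronger of which had a pooled signal of 56.7 and lay 770 bp upstream of it, nearer to Y48B6A.1.

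The DNA under the xrn-2 peak is given in a pair of pieces to show where the summit falls, the first from the spacer between the genes (chrII:14155697-14155767, WBcel235, plus strand, RefSeq) and the second from the coding sequence (chrII:14155787-14155897). The annotated 5′ untranslated bases between them are left out. Capitals mark the start codon, and the summit is base 11 of the second piece.
xrn-2 upstream: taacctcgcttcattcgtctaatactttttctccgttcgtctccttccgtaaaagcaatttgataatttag
xrn-2 coding: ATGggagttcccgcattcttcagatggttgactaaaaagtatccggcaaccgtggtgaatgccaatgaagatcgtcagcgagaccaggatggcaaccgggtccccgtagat

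The summit lay near the start of the coding stretch, which holds 52.3% G and C, while the spacer before it holds 36.6%. The window of 50 bp on either side of the summit held 38.6%, the lower quartile of all conservative summits. None of the words searched below was found within 100 bp of it.

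Both remaining genes act on the process from outside the assembly line. The protein NCL-1, of the TRIM-NHL family, keeps nucleoli small, and its loss enlarges them. The protein LARP-1 is a La-related RNA-binding protein, whose human relative binds messages of ribosomal proteins.

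The strongest signal of the 10 genes was at larp-1 (chromosome III, 5008925 to 5017650, minus strand). Its peak spanned chrIII:5018163-5018462, with a pooled signal of 157, rank 80 of the 1687 conservative peaks and an IDR of 2.9e-05. The replicates gave 79.4 and 75.9 (77.6 ± 2.44, SD, n = 2), with summits 655 and 689 bp upstream of the start. Both replicates were high, above 99.5% and 99.6% of coding genes with a ranked summit. The pooled summit lay between genes, 663 bp upstream of larp-1 but 326 bp upstream of wip-1, a gene for a WASP-interacting protein that starts on the opposite strand, so the peak cannot be given to either gene alone. A further conservative peak with a pooled signal of 71.1 (31.4 ± 0.0683, SD, n = 2) lay inside an intron of larp-1, 3623 bp downstream of the start.

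The 201 bp centred on the larp-1 summit are shown because they hold words that were frequent at summits in earlier results of these data (chrIII:5018213-5018413, WBcel235, minus strand, RefSeq). Capitals mark AGACGC overlapping with GACGCA, and further on ACGCAG. The summit is base 101.
larp-1 summit: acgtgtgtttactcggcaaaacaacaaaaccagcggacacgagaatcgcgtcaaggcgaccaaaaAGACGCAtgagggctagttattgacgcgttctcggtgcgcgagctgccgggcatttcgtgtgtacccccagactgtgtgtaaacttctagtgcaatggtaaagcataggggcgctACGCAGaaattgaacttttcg

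The words AGACGC and GACGCA and ACGCAG, which are shifted copies of one run of bases, the E-box CACGTG and the TATAAA box were searched on both strands. Within 100 bp of a conservative summit, 25.4% of the 1687 windows held at least 1 of the first 3 words, 5.81% CACGTG and 14.7% TATAAA. Of the strongest summits of the 4 bound genes, only that of larp-1 held any of the first 3 words, and only that of pro-1 held TATAAA. The larp-1 summit was also the richest in G and C of the 4, at 54.5% within 50 bp on either side, against 48.5% at nol-58. In promoters reaching from 250 bp before the start to 50 bp after it, 1 of the 10 genes (ncl-1) held any of the first 3 words, against 15.3% of all promoters, and 1 (pro-3) held CACGTG, against 5.85%. TATAAA was in the promoters of 5 of the 10, against 37.9% of all. A match or its lack describes letters only.

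At ncl-1 (chromosome III, 7719729 to 7738105, plus strand) the strongest summits in the window were 15.5 at 41 bp upstream in replicate 1 and 18.0 at 405 bp downstream in replicate 2, above 36.4% and 68.0% of coding genes with a ranked summit. With a window from 2000 bp upstream these shares became 93.9% and 63.6%. Neither summit in the window passed the threshold. The gene has 10 annotated transcripts with 8 distinct starts, and no conservative summit lay in the window of any of them. One conservative peak lay inside the gene, 10095 bp downstream of the start, with a pooled signal of 69.1 (34.8 ± 8.93, SD, n = 2). Its summit was in an intron of ncl-1 and in a coding exon of ZK112.4, which is nested there on the opposite strand.

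**Figure D3:**
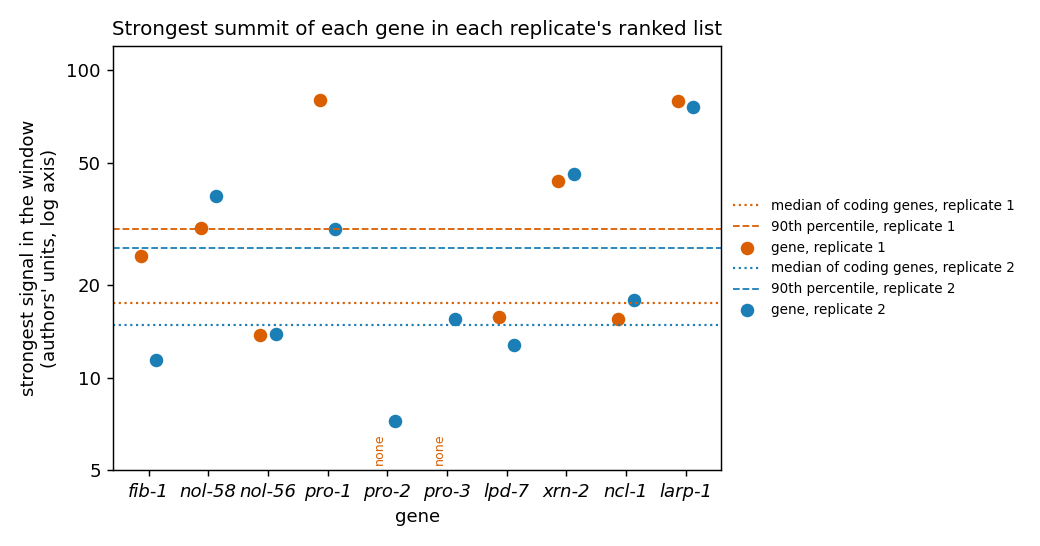
Strongest signal in the window of each of the 10 genes in the ranked list of replicate 1 (orange) and replicate 2 (blue), on a log axis in the authors' units, with the median (dotted) and the 90th percentile (dashed) of all coding genes with a ranked summit. The 4 bound genes reach the 90th percentile in both replicates, which partly follows from the bound call, as it rests on the same replicates. For pro-1 the values of 79.8 and 30.5 are from different summits, 128 and 856 bp upstream. The label "none" marks replicate 1 at pro-2 and pro-3.

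Over the 8 genes with a ranked summit in both replicates, the median of the strongest signal was 27.82 in replicate 1 and 24.23 in replicate 2. Over all coding genes with a ranked summit it was 17.6 and 14.8, with 90th percentiles of 30.4 and 26.4. The genes pro-2 and pro-3, with no ranked summit in replicate 1, are not among the 8. The values for all coding genes need a summit in that replicate only. By that rule the median in replicate 2 over all 10 genes was 16.8, beside 14.8 over all coding genes. The 4 bound genes lay at or above the 90th percentile in both replicates, with nol-58 in replicate 1 the nearest to it (30.8), and no unbound gene reached it in either. The bound call rests on peaks of these same replicates, so this split partly follows from the call.

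Ribosomal protein genes stood beside several of the 10, which was noticed after the values were seen. Within 2000 bp of fib-1, lpd-7 and xrn-2 lies a gene of a cytosolic ribosomal protein (rps-16, rpl-9 and rpl-43), so 3 of 10 have one, against 0.896% of all protein-coding genes. At each of these 3 places the conservative peak nearest to the start of the member lay within the ribosomal protein gene or 215 to 228 bp past its 3′ end. Which gene such a peak belongs to cannot be told apart from these lists. By position, the xrn-2 summit lay in a coding exon of xrn-2, 29 bp from its start. The summit beside fib-1 lay in rps-16, 105 bp from the start of that gene. In the conservative list 14 of 48 genes of large-subunit proteins (29.2%) and 11 of 31 of small-subunit proteins (35.5%) were bound, with median strongest signals of 81.6 and 81.8. These shares stand beside 40% of the 10 genes and 3.89% of all coding genes.

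A wider list of 68 symbols for ribosome biogenesis, nucleolar and RNA polymerase I genes had 56 in the annotation, the 10 included. Of the other 46, only rpl-24.2 was bound in the conservative list (2.17%, beside 3.89% of all coding genes). Despite its name, rpl-24.2 is the worm relative of the yeast assembly factor Rlp24. Its summit lay 127 bp upstream of the start with a pooled signal of 123 (55.9 ± 3.83, SD, n = 2), and both replicates alone had it, at 53.2 and 58.7. Genes of other roles, such as the exosome subunits exos-1, exos-2 and exos-3, the RNA polymerase I genes rpoa-1 and rpoa-2, dao-5 and the GTPase genes nst-1 and nog-1, were not bound. In the ranked lists the strongest signals of these other genes had medians of 18.8 over 29 genes in replicate 1 and 16.8 over 34 in replicate 2, beside 17.6 and 14.8 over all coding genes. The gene of the tagged protein, znf-593, was not bound, with the nearest conservative summit 3097 bp from its start.

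By pooled signal larp-1 ranked 41 among the 777 bound coding genes, followed by pro-1 at 92, while xrn-2 stood at 199 and nol-58 at 604. The peaks of larp-1 and nol-58 were also counted for wip-1 and zip-4, which share these signals. The genes just above and below were mtcu-2 (164) and D2096.7 (154) for larp-1, hsr-9 and rps-19 (both 126, a shared peak) and ufbp-1 (125) for pro-1, ZK1321.4 (97.1) and sco-1 (96.8) at xrn-2, and teg-4 (61.5) and F16B12.6 (61.4) for nol-58. These neighbours in rank have varied roles, from a ribosomal protein to a copper chaperone of mitochondria (sco-1).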

How the data were processed

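ChIP-seq peak lists of 2 biological replicates were analysed as deposited. Per the labels, chromatin was sonicated, the library size range was 200 to 800 and the assembly was ce11. Per the file descriptions, lists were ranked or thresholded by IDR. The names of the aligner and peak caller were not found in the labels or file descriptions. The signal of each peak is the authors' own value, never negative, and was used to rank peaks within a list. The −log10 values deposited by the authors give the IDR, with at least 2 (IDR at most 0.01) marking the conservative list. Each conservative peak carries the signals of 2 paired peaks in the ranked list that pairs the replicates, which gave the mean ± SD. At pro-1 the second paired peaks of the summits at 78 and 324 bp upstream are not in replicate 2's own ranked list. Files hold no read counts, so the depth is unknown here.

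Gene starts came from Ensembl release 115 (WBcel235) and DNA from the RefSeq genome of that build. All peaks ended within the chromosome of the same name. Coordinates are 1-based. Calls were made with Python 3.11.15, pandas 2.3.3 and numpy 2.4.6, and the window call was tested on simulated data. With 1 group there was no contrast, and no test was run. The 10 genes, the wider list and the words searched were chosen with earlier results of these data known. All 10 genes, bound genes of the wider list and neighbours in rank were named by rule. Other neighbouring genes were named after their values were seen. Alternatives changed the window, start, assignment, peak list and threshold.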

Additional observations from a re-analysis of the deposited data

How the results depend on the processing

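The count of 4 bound genes was recomputed under 10 alternatives and is given with the share of all coding genes bound under each, 3.89% in the main setting. It fell to 2 with each summit given to the nearest coding start only (pro-1 and xrn-2 remained, and the peaks of larp-1 and nol-58 went to wip-1 and zip-4; all coding genes 3.18%) and to 2 with an IDR of at most 0.001 (larp-1 and xrn-2 remained; all coding genes 1.47%). It was 5 with the window from 2000 bp upstream, which added lpd-7 (all coding genes 5.41%). A window reaching 500 bp upstream and 200 bp downstream gave 3 and lost larp-1, the strongest of the 10 (2.67%). Peaks at or above the median signal also gave 3, without nol-58 (2.20%). The count was 3 with either replicate alone (range 3 to 3, all coding genes 1.85% to 2.00%), and 4 in the other alternatives (4.01% to 4.28%). The gene xrn-2 was bound under all 10. Of the 56 genes of the wider list, 5 were bound in the main setting (8.93%). Of these 5, 4 were among the 10 genes picked by name, and of the other 46 genes 1 was bound (2.17%). The window from 2000 bp upstream gave 10 (17.9%), as lpd-7, dkc-1, eif-6, exos-3 and exos-4.1 were added. Of these 10, 5 were among the genes picked by name. The wider list gave 3 (5.36%) with the nearest start only and 3 with an IDR of at most 0.001. With either replicate alone it gave 4 (7.14%, range 4 to 4). These shares stand against those of all coding genes just given for each setting.

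Without replicate 2 the strongest signals were 30.8 (nol-58), 79.8 (pro-1), 43.5 (xrn-2) and 79.4 (larp-1), and without replicate 1 they were 39.1, 30.5, 46.0 and 75.9, each below the pooled value, which combines both. The values of pro-1 are from different summits, 128 and 856 bp upstream. Percentile ranks among coding genes were recomputed with both other windows. Each gene's SD between replicates (n = 2) was set beside the move. It is wide at fib-1 (80.4 and 25.7) and narrow at lpd-7 (38.8 and 35.7), so the count also reflects how far the replicates differ. Of 27 such ranks of genes ranked in both replicates, 22 moved by less than this SD. The other 5 were of ncl-1 in replicate 1, from 36.4 to 93.9 with the window from 2000 bp upstream, and of lpd-7, from 38.8 and 35.7 to 96.9 and 97.1 with that window and to 42.2 and 8.88 with the narrower one. For pro-2 and pro-3 there is no such SD; in replicate 2 their ranks went from 5.30 to 52.4 and from 54.7 to 49.7 with the wider window, and to 7.98 and 58.5 with the narrower one. The narrower window left no ranked summit, and so no rank, for larp-1 in either replicate. The same held for pro-1 and fib-1 in replicate 2 and for nol-56 in replicate 1. These lost ranks are not among the 27, although larp-1 stood at 99.5 and 99.6 in the main setting. No paired analysis was possible because the design has 1 group. Depth is unknown, so a missing summit is a limit of these lists.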

Other observations

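The pairing of peaks seen at pro-1 occurs elsewhere in the conservative list. Of the 1687 peaks, 207 (12.3%) share their first paired peak with another conservative peak and 202 their second, and 106 (6.28%) have a pooled signal below both of their paired values. The summits at 1244 and 1036 bp upstream of xrn-2, with pooled signals of 56.7 and 10.9, are such a case, with the same paired values (31.0 ± 4.19, SD, n = 2). A count of peaks at a gene can therefore include 1 replicate peak more than once, and the strongest summit per gene was used for this reason.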
